A study of Arabidopsis thaliana with 12 samples.

Results

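The response of 35S:MYB106SRDX seedlings was read from 8 of the 12 arrays of the series, chosen by their labelled genotype: 4 of 35S:MYB106SRDX seedlings and 4 of wild-type seedlings. All came from whole Arabidopsis thaliana seedlings, 3 weeks old, of the accession Columbia-0, grown on sucrose-containing MS agar under long days. The MYB106SRDX seedlings carry the construct 35S:MYB106SRDX:NOS, in which the viral 35S promoter, active in most plant tissues, drives MYB106 joined to the repression domain SRDX of the SUPERMAN (SUP) protein, followed by the NOS terminator. The labels name no transgene in the wild type. Each RNA sample came from several seedlings of a plate that held many, and separate cultures are not named, so the p-values measure the spread between these samples only. The sources used here do not say whether the 4 MYB106SRDX samples come from 1 transgenic line or several. The other 4 arrays, of 35S:WIN1SRDX:NOS seedlings of the same accession and age, entered the same fit and serve for a direct contrast with MYB106SRDX and for values given side by side.

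MYB106 is an R2R3-type MYB transcription factor of the MIXTA class, known in Arabidopsis for its part in trichome branching, the shape of epidermal cells and the formation of the cuticle. A fusion to SRDX turns a transcriptional activator into a dominant repressor, so that genes the factor would switch on are held down, also where related factors are present. Beyond the epidermis, a seedling transcriptome reports on growth machinery such as tubulins and wall enzymes, on hormone pathways and on stress responses, and these are the gene groups described here.

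Each value is the log2 of the processed spot signal minus the 75th percentile of the array, called log2 units below. A difference is the MYB106SRDX mean minus the wild-type mean with the standard error (SE) of the limma fit, and a gene passed where its Benjamini-Hochberg adjusted p lay under 0.05. Between 59.3% and 61.4% of the spots on a MYB106SRDX array, and between 61.8% and 64.0% on a wild-type array, were flagged as well above background, and saturation was flagged on none. Of 25665 loci on the array, 20267 (79.0%) were tested. The MYB106SRDX arrays correlated with each other at r = 0.938 to 0.973 over genes, against 0.989 to 0.994 among wild-type arrays. The median gene had an SD of 0.306 log2 units over the MYB106SRDX arrays and 0.142 over the wild-type arrays.

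The signal of MYB106 itself separated the groups. The MYB106 probe read 4.57, 2.77, 4.81 and 4.53 in MYB106SRDX replicates 1 to 4, against -3.12, -1.53, -2.33 and -2.18 in wild type. All 4 MYB106SRDX arrays lay far above the wild-type arrays, and replicate 2 was the lowest of them. The difference was 6.46 ± 0.54 (SE; adjusted p = 7.56e-06). The probe of SUP, the gene from whose protein the SRDX domain derives, gave 5.34, 3.59, 5.46 and 5.17 in MYB106SRDX. Every wild-type array was too dim for this probe to count as well above background, so the MYB106SRDX signal exceeded wild type by at least 4235-fold (adjusted p = 7.29e-09). Replicate 2 was again the lowest. Each gene given such a bound below passed, with an adjusted p of at most 0.0107. The MYB106 probe does not tell the transcript of the construct from that of the native gene. Whether the SUP probe reads the construct, which carries the SRDX domain, or the native SUP gene was not tested.

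The response was wide. In MYB106SRDX, 4789 of the 20267 genes tested (23.6%) rose and 5798 (28.6%) fell, together 52.2%. With at least a 2-fold change, 2049 (10.1%) rose and 3716 (18.3%) fell, together 28.4%. Differences of at least 4-fold were counted for 1033 genes that rose and 2100 that fell, of at least 16-fold for 314 and 572, and of at least 64-fold for 83 and 100. The median of all genes was -0.05, with 5% of genes below -3.15 and 5% above 2.07 log2 units. For 52.7% of genes no array of either group lay within the range of the other, of which 4933 lay above wild type and 5738 below. In the plot of all differences, falls form the heavier flank over most of the range, while the few largest rises reach past 10 log2 units. The largest rises include the SUP probe, well above background on no wild-type array. They also include CYP82C2 (10.4), well above background on 2 wild-type arrays.

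**Figure D1:**
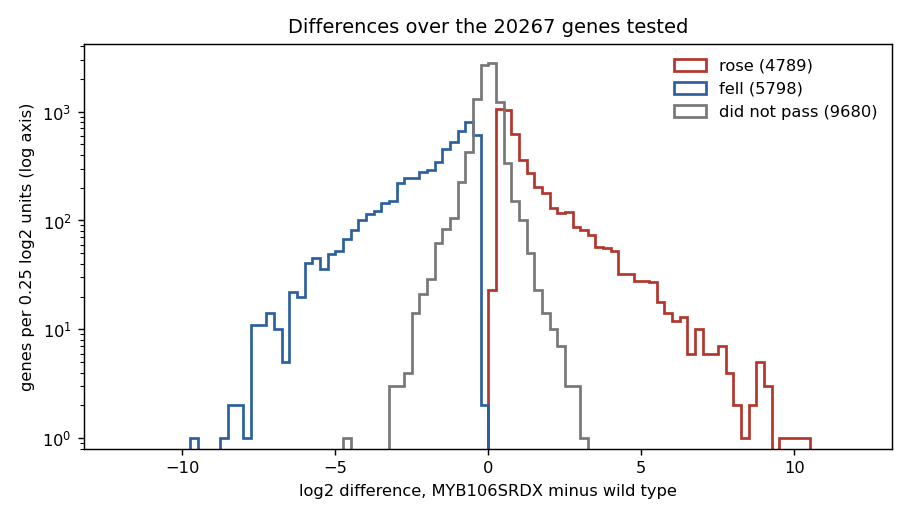
Number of genes (log axis) per 0.25 log2 units of difference, MYB106SRDX minus wild type, drawn apart for genes that rose (4789), fell (5798) and did not pass. Falls of at least 4-fold (2100) outnumber rises of that size (1033). The largest rises lie farther from 0 than the largest falls, and include genes near background in wild type.

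The split of directions depended on the scaling of the arrays and on the treatment of dim genes. Scaling each array to its median in place of its 75th percentile added 0.54 to every log2 difference, and 75.9% of the passing genes were then higher (9892 higher, 3141 lower), against 45.2% in the scaling used here. Among passing genes of any size, the excess of falls was also absent with normexp, a background correction (5059 higher, 4804 lower). It was absent too when each gene had to be well above background on all 12 arrays (4445 higher, 4430 lower). Quantile normalization gave 5198 higher and 5343 lower. Among genes changed at least 2-fold, falls still outnumbered rises with normexp (1927 higher, 2420 lower). The same held with the filter on all 12 arrays (1693 higher, 2349 lower). The median over 8 commonly used reference genes, which include ACT2, UBQ10 and PP2AA3, was -0.07 with the 75th percentile and 0.47 with the median. Rises and falls below are relative to the 75th percentile, and counts with median scaling stand beside gene groups whose counts it moves by over 1.5 times. The median absolute difference was 1.37 log2 units among the 4054 genes with the lowest wild-type levels and 0.38 among the 4054 with the highest. Genes too dim in wild type were tested only where MYB106SRDX or WIN1SRDX was well above background. The larger size in the lowest class follows in part from this choice and is no separate result. Normexp gave smaller folds for dim genes, by over 1.5 times for 109 of the 286 genes in the sensitivity set, always toward 0.

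The 38 gene lists held 648 members, of which 26 were left out because their symbol disagreed with their locus, 1 was not on the array and 16 were below background, leaving 605 tested. List counts are read against the shares over all genes tested, 23.6% rising and 28.6% falling. Counts with median scaling are read against that scaling's own background, 9892 rising and 3141 falling of the 20267 genes tested. In the plot of list medians, some lists have all MYB106SRDX arrays above wild type, headed by mitochondrial stress genes, and some have all of them below, ending with xylem and root markers. The others include the Calvin cycle, guard cell, monolignol, ethylene and ribosomal protein lists. They have at least 1 MYB106SRDX array within the wild-type range, or arrays on both sides of it.

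**Figure D2:**
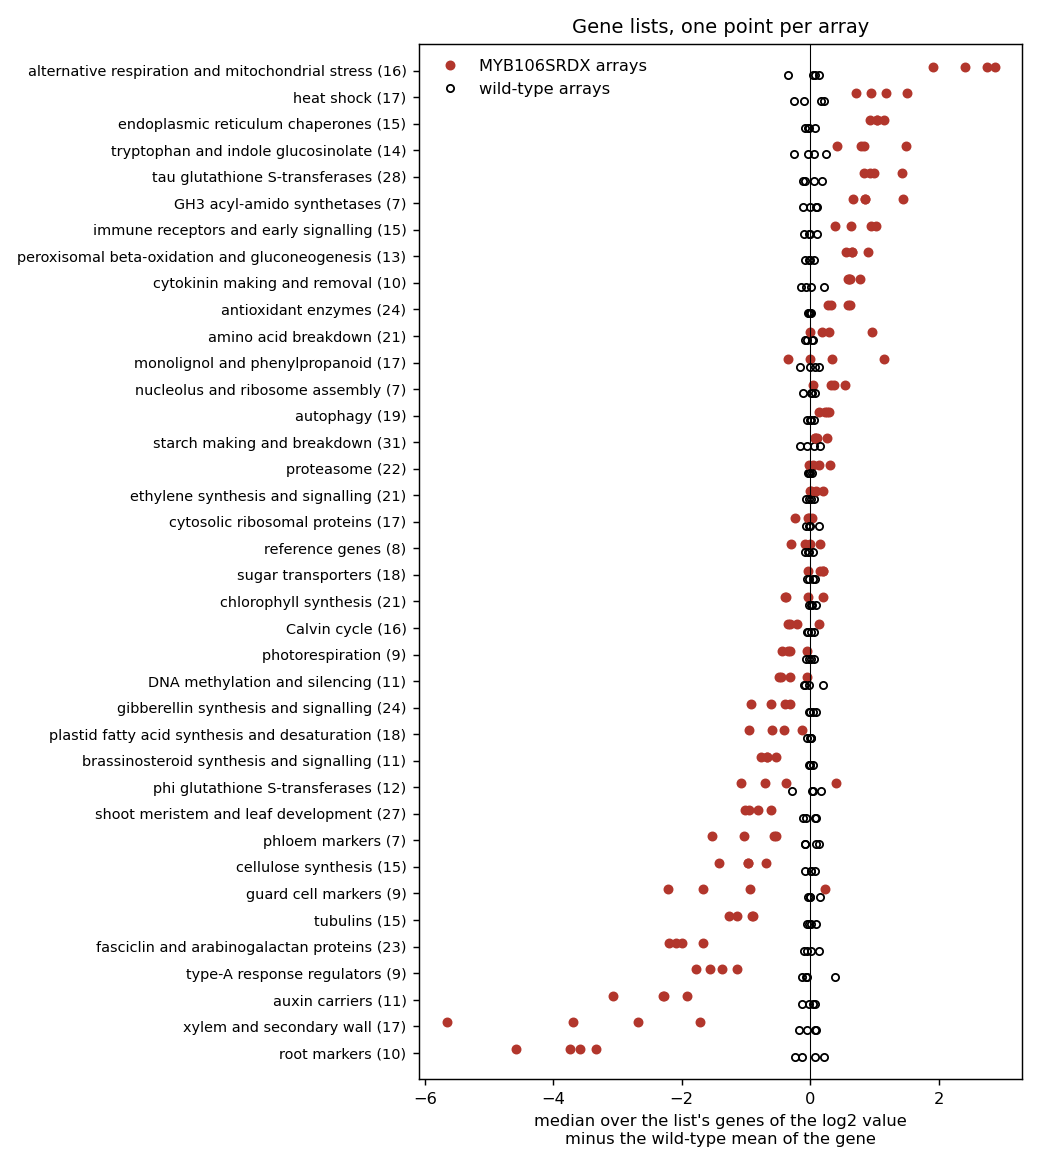
Median over each list's tested genes (number in brackets) of the log2 value minus the wild-type mean of the gene, 1 point per array, MYB106SRDX in red and wild type as open circles. MYB106SRDX medians run from -5.66 on 1 array for xylem genes to 2.88 for alternative respiration, while all wild-type medians lie between -0.35 and 0.39.

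Markers of several tissues moved, and in whole seedlings fewer cells of a type and less RNA per cell cannot be told apart. Of 10 root markers, 7 fell and 1 rose, with list medians of -4.59 to -3.33 on the MYB106SRDX arrays and -0.24 to 0.21 on the wild-type arrays. The list's median difference was -3.81, but -2.03 with normexp and -0.15 over the members well above background on all 12 arrays, which leaves out those too dim on any array. PHO1, which loads phosphate into the root xylem, read -2.23, -2.96, -3.01 and -3.34 in MYB106SRDX, against 0.40, 0.29, 0.37 and 0.35 in wild type. The MYB106SRDX arrays all lay below wild type, by -3.24 ± 0.25 (SE; adjusted p = 4.84e-06). SHR, a GRAS factor that patterns the root ground tissue, differed by -2.45 ± 0.29. CASP1, which guides the Casparian strip of the endodermis, read -6.26, -5.96, -9.17 and -7.73 in MYB106SRDX, against 0.52, 0.45, 0.78 and 0.73 in wild type, and was well above background on only 2 MYB106SRDX arrays. The root hair genes SHV2 and EXPA18 were not well above background on any MYB106SRDX array, at least 43.4-fold and at least 16.7-fold below wild type.

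Root genes did not all fall. WOX5, a homeobox factor of the root quiescent centre, rose, with -1.44, -0.97, -1.55 and -0.69 in MYB106SRDX, against -5.05, -5.69, -4.96 and -4.90 in wild type (3.99 ± 0.28, SE; adjusted p = 2.90e-06). All 4 MYB106SRDX arrays lay above all wild-type arrays. SCR, the partner of SHR in the ground tissue, differed by -0.15 ± 0.16 (adjusted p = 0.456) and RHD2, the NADPH oxidase of root hair growth, by -0.13 ± 0.57 (adjusted p = 0.858); neither passed, and their arrays overlapped between groups. Green leaf genes were close to wild type: the medians of 16 Calvin cycle genes ran from -0.35 to 0.13 on the MYB106SRDX arrays and from -0.05 to 0.07 on the wild-type arrays.

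Genes of xylem and the secondary wall fell together. Of 17 tested, 14 fell and none rose, with 13 falling after normexp, which brought the list median from -3.52 to -1.50. XCP1, a cysteine protease of maturing vessels, read -0.03, -4.95, -2.45 and -1.50 in MYB106SRDX, against 1.65, 2.09, 1.56 and 1.58 in wild type. FLA12, a fasciclin-like protein of secondary walls, read -3.39, -7.14, -5.09 and -3.83 in MYB106SRDX (well above background on 3 arrays), against 0.17, -0.09, -0.12 and -0.07 in wild type. In both, replicate 2 was the lowest and replicate 1 the nearest to wild type, and no MYB106SRDX array reached wild type.

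The same order of arrays held for the list as a whole. Its median was -1.71, -5.66, -3.70 and -2.68 on MYB106SRDX replicates 1 to 4, and without replicate 2 the fit gave a median of -2.76 with 13 of 17 falling. Each of the 3 array slides held arrays of both groups, and within slides the list median was -1.90, -4.71 and -2.64. LAC17, a laccase of lignin formation, differed by -3.18 ± 0.62, IRX15, needed for xylan, by -4.23 ± 0.61, and MYB46, a master regulator of the secondary wall, by -2.78 ± 0.54. IRX15 was well above background on only 2 MYB106SRDX arrays, and MYB46 on 3. FRA8, another xylan gene, differed by 0.03 ± 0.23 and did not pass. The plot of xylem genes shows replicate 2 at the bottom for each gene drawn.

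**Figure D3:**
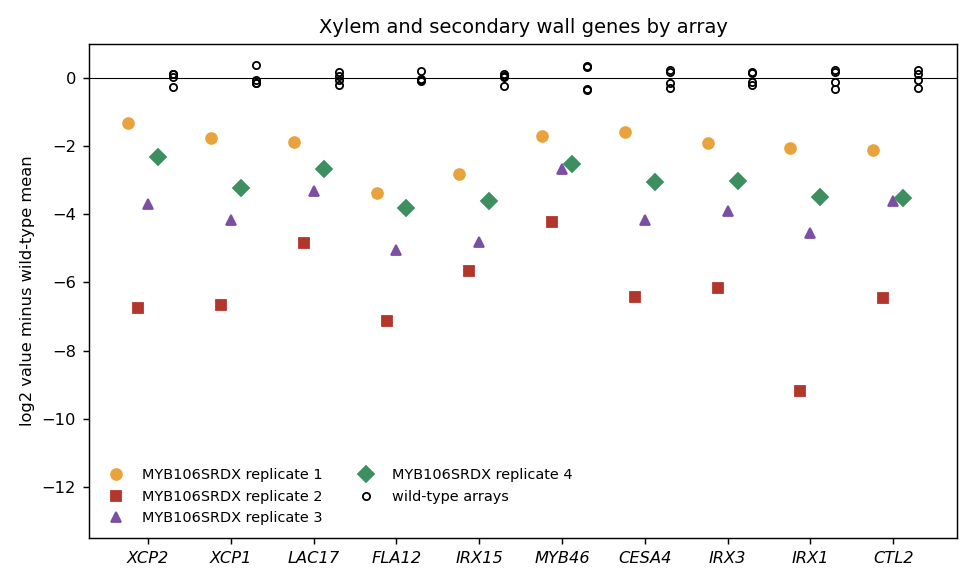
Log2 value minus the wild-type mean for 10 xylem and secondary wall genes (the last 4, CESA4 to CTL2, from the cellulose list), with each MYB106SRDX array as a filled symbol of its own and the wild-type arrays as open circles. MYB106SRDX replicate 1 lies nearest to wild type and replicate 2 farthest in every gene shown.

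Enzymes of lignin precursors had mixed directions. Of 17 monolignol and phenylpropanoid genes, 4 rose and 2 fell, beside 23.6% rising and 28.6% falling over all genes tested. CAD5, a cinnamyl alcohol dehydrogenase, rose by 2.08 ± 0.19, 4CL1, a coumarate-CoA ligase, by 1.83 ± 0.14, and FAH1, a ferulate hydroxylase, by 1.59 ± 0.19 (SE; adjusted p = 1.21e-05, 4.54e-06 and 6.57e-05). ATCAD4 read -0.75, 1.17, -1.14 and -1.0 in MYB106SRDX, against 1.25, 1.24, 1.54 and 1.47 in wild type, and replicate 2 stood far above the other MYB106SRDX arrays. The list median was 0.33, and -0.0021 without MYB106SRDX replicate 2. With median scaling, 10 of the 17 rose and 1 fell.

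Phloem markers were lower as well, with 5 of 7 falling (2 of 7 with median scaling, 6 of 7 without MYB106SRDX replicate 2) and none rising. SUC2, the sucrose loader of companion cells, read -0.53, 0.51, -0.97 and -1.38 in MYB106SRDX, against 2.74, 2.79, 2.32 and 2.34 in wild type, without overlap (-3.14 ± 0.39, SE; adjusted p = 8.74e-05). CalS7, which makes callose in sieve plates, differed by -1.89 ± 0.34. Of 9 guard cell markers, 2 fell, the potassium channels KAT1 (-2.95 ± 0.49) and GORK (-1.58 ± 0.15). The share falling over all genes tested was 28.6%. Guard cell medians were -0.94, 0.24, -2.22 and -1.67 on MYB106SRDX replicates 1 to 4, so that replicate 2 lay above wild type and the others below, and without it 4 of the 9 fell. The part of these tissue markers in the results below was not tested.

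Of 27 genes of the shoot meristem and leaf development list, 14 fell and 1 rose (8 and 2 with median scaling). ANT, an AP2-type promoter of organ growth, read -1.45, -2.53, -3.26 and -3.42 in MYB106SRDX, against -0.27, 0.63, -0.06 and 0.16 in wild type. AN3, a coactivator of leaf cell proliferation, read -1.67, -2.51, -2.85 and -2.15 in MYB106SRDX, against -0.74, 0.27, 0.32 and 0.63 in wild type. For both genes every MYB106SRDX array lay below every wild-type array, by -2.78 ± 0.45 and -2.41 ± 0.32 (SE; adjusted p = 0.000474 and 0.000144). KAN, which sets the lower side of leaves, differed by -1.52 ± 0.17, and TCP10, a factor of leaf maturation, by -2.38 ± 0.39. AS1, a MYB factor that keeps meristem genes out of leaves, rose by 1.12 ± 0.22 (adjusted p = 0.00149).

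Tubulins fell without exception among the passing members: 12 of 15 fell and none rose (7 of 15 with median scaling). TUB8 read 1.07, 1.42, 0.36 and 1.01 in MYB106SRDX, against 3.39, 3.63 and 3.61 in wild-type replicates 1, 3 and 4, the spot of replicate 2 being marked as an outlier and left out of the fit. TUB7 read -0.86, -0.91, -1.93 and -1.78 in MYB106SRDX, against 0.93, 0.76, 1.16 and 1.07 in wild type. Neither gene overlapped between groups, and both differed by more than 2 log2 units (-2.58 ± 0.23 and -2.35 ± 0.26, SE). TUB1 differed by -1.79 ± 0.20. TUA1, known in Arabidopsis from pollen, differed by -0.06 ± 0.17 and did not pass. Tubulin probes can cross-hybridise between near-identical copies such as TUB2 and TUB3 or TUA2 and TUA4.

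Cellulose synthesis genes gave 14 falls among 15 and no rise, and 5 falls with median scaling. The subunits of the secondary wall fell, with -3.80 ± 0.85 for CESA4, -3.76 ± 0.76 for IRX3 (CESA7) and -4.82 ± 1.20 for IRX1 (CESA8). IRX3 and IRX1 were well above background on 3 of the 4 MYB106SRDX arrays. CTL2, a chitinase-like protein tied to cellulose, differed by -3.92 ± 0.78. The primary wall subunit CESA2 read 2.51, 2.72, 2.35 and 2.57 in MYB106SRDX, against 3.56, 3.54, 3.41 and 3.42 in wild type. The groups did not overlap for CESA2 (-0.94 ± 0.14, SE; adjusted p = 0.000344), but the call was lost with median scaling, as was that of CESA5 (-1.11 ± 0.22).

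Fasciclin-like and arabinogalactan proteins, sugar-rich proteins of the cell surface, had 18 falls and 1 rise among 23 genes (15 and 1 with median scaling). AGP9 read 0.55, 0.63, 0.15 and 0.25 in MYB106SRDX, against 2.95, 2.73, 2.88 and 2.85 in wild type, and AGP22 read -5.43, -5.10, -5.91 and -5.86, against -1.66, -1.40, -1.12 and -1.33. In both the 4 MYB106SRDX arrays were tightly grouped far below wild type (-2.46 ± 0.18 and -4.20 ± 0.22, SE). AGP4 differed by -4.98 ± 0.57. AGP2 went the other way, by 2.21 ± 0.25 (adjusted p = 4.58e-05). Outside the list, AGP30, of roots, was not well above background on any MYB106SRDX array and lay at least 50.9-fold below wild type.

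Families taken by symbol placed other parts of the growth machinery beside these lists. Of 36 cyclins, which drive the cell cycle with their kinases, 25 fell and 3 rose (20 and 5 with median scaling, and 17 falling with normexp). CYCD1;1 differed by -3.63 ± 0.69, being well above background on 3 MYB106SRDX arrays, while CYCD2;1 rose by 0.89 ± 0.13. Of 52 Rab and ROP small GTPases, which steer vesicles and cell polarity, 28 fell and 5 rose (15 and 13 with median scaling). RABA3 differed by -2.75 ± 0.29, while RABA6b rose by 2.08 ± 0.40. Of 21 syntaxins, 9 fell and 2 rose, but 4 fell and 9 rose with median scaling. FH8, an actin-nucleating formin, read 0.01, 0.11, 0.21 and 0.49 in MYB106SRDX, against -2.46, -2.69, -2.39 and -2.45 in wild type, all arrays above wild type (2.71 ± 0.18, SE; adjusted p = 1.71e-06).

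Among transcription factor families, 14 of 26 GATA factors fell and 4 rose (11 and 8 with median scaling), 10 of 20 TCP factors fell and 3 rose (7 and 5), and 42 of 96 MYB factors fell and 21 rose. TCP11 read 3.00, 2.17, 2.03 and 1.61 in MYB106SRDX, against 5.05, 5.03, 5.01 and 4.96 in wild type, and all 4 MYB106SRDX arrays were lower (-2.81 ± 0.26, SE; adjusted p = 1.39e-05). Of 37 bZIP factors, 17 fell and 7 rose (13 and 13 with median scaling). BZIP61 read -3.84, -4.76, -5.48 and -4.90 in MYB106SRDX, against 0.48, 0.51, 0.46 and 0.55 in wild type, a difference of -5.25 ± 0.35. NAC factors ran the other way, with 36 of 80 rising and 18 falling (10 falling with normexp).

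**Figure D4:**
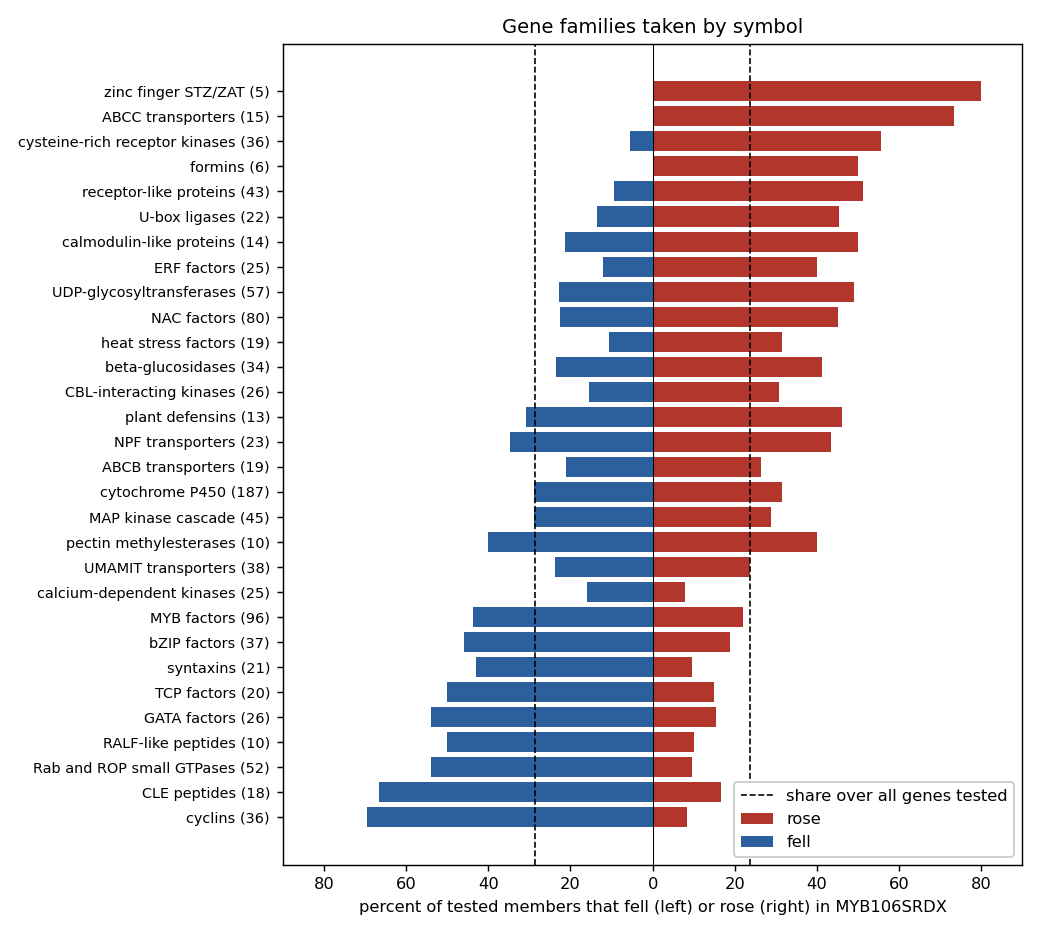
Share of the tested members (number in brackets) of 30 gene families that rose in MYB106SRDX (right, red) or fell (left, blue), with dashed lines at the shares over all genes tested, 23.6% and 28.6%. ABCC transporters (11 of 15) and cysteine-rich receptor kinases (20 of 36) rose most often among families of over 10, and cyclins (25 of 36) and CLE peptides (12 of 18, but 5 of 18 with normexp) fell most often.

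Auxin carriers fell as a group. These proteins move the growth hormone auxin from cell to cell, PIN proteins outward and AUX1 and LAX proteins inward. Of 11 tested, 10 fell and none rose, also with median scaling. LAX3 read -1.47, -1.16, -1.76 and -1.86 in MYB106SRDX, against 0.93, 1.00, 1.31 and 1.20 in wild type, and PIN7 read -1.58, -2.54, -2.76 and -1.87, against 0.28, 0.40, 0.14 and 0.46. No MYB106SRDX array reached wild type for either (-2.67 ± 0.19 and -2.50 ± 0.28, SE; adjusted p = 2.52e-06 and 4.33e-05). PIN3, PIN4 and AUX1 differed by -2.17 ± 0.26, -3.35 ± 0.45 and -2.48 ± 0.31. EIR1 (PIN2), also counted as a root marker, differed by -4.38 ± 0.51 and was well above background on 2 MYB106SRDX arrays. PIN5, a carrier of the endoplasmic reticulum, differed by -1.08 ± 0.52 (adjusted p = 0.104).

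Auxin-responsive genes outside that list were among the largest falls. AXR3 (IAA17), a repressor of auxin responses, read -2.60, -3.52, -4.53 and -2.72 in MYB106SRDX, against 2.19, 2.42, 2.74 and 2.39 in wild type. IAA19, of the same family, differed by -5.50 ± 0.48, and the growth-promoting SAUR63 and SAUR19 by -5.60 ± 0.41 and -5.25 ± 0.70. The arrays of the groups lay apart in all 4 genes. Of 7 GH3 enzymes, which conjugate auxin to amino acids, 3 rose and 1 fell (5 and 1 with median scaling). WES1 (GH3.5) and DFL1 (GH3.6) rose by 1.31 ± 0.24 and 1.24 ± 0.24, and GH3.1 differed by -3.62 ± 0.63 with 1 MYB106SRDX array above background.

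Gibberellin genes split. Of 24 tested, 11 fell and 4 rose, and the list median of -0.46 became 0.08 with median scaling. GASA6, a gibberellin-responsive peptide, read -1.30, -3.68, -1.89 and -1.68 in MYB106SRDX, against 2.42, 2.96, 2.20 and 2.52 in wild type, without overlap (-4.66 ± 0.46, SE; adjusted p = 1.98e-05). GA20OX1, a biosynthetic oxidase, differed by -4.15 ± 0.35, with 2 MYB106SRDX arrays above background. Another oxidase, GA20OX3, read -1.02, -4.55, -0.86 and -0.75 in MYB106SRDX, against -7.10, -5.80, -5.61 and -5.87 in wild type, and replicate 2 lay nearest to wild type while the other replicates were far above. It was well above background on 3 wild-type arrays. The receptor gene GID1B rose by 2.29 ± 0.22 (adjusted p = 1.45e-05).

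Of 11 brassinosteroid genes, 7 fell and none rose (5 and 3 with median scaling). BRI1, the receptor, read 1.31, 1.57, 0.89 and 0.77 in MYB106SRDX, against 2.53, 2.51, 2.30 and 2.36 in wild type, all arrays lower (-1.29 ± 0.20, SE; adjusted p = 0.000368). DWF4, of synthesis, differed by -1.75 ± 0.45, and BR6OX1, which makes active brassinosteroids, was at least 6.6-fold below wild type, being above background on no MYB106SRDX array. BEE1, a factor known to be induced by brassinosteroid, read -0.84, -3.11, -3.75 and -2.12 in MYB106SRDX, against 3.09, 3.30, 3.11 and 2.94 in wild type.

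Cytokinin genes moved in both directions. CKX2, a cytokinin-degrading oxidase, was detected on all MYB106SRDX arrays and on no wild-type array, at least 56.4-fold higher. CKX6 read -1.68, -2.96, -3.67 and -2.66 in MYB106SRDX, against 0.72, 1.19, 1.00 and 0.94 in wild type, all arrays lower (-3.70 ± 0.40, SE). In all, 5 of 10 genes of cytokinin making and removal rose and 3 fell. Of 9 type-A response regulators, which are cytokinin-induced, 5 fell and none rose. ARR9 read -0.41, -1.18, -1.15 and -1.23 in MYB106SRDX, against 0.54, 1.36, 1.02 and 0.95 in wild type, and ARR6 differed by -1.90 ± 0.53.

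Ethylene synthesis genes gave large changes of both signs. Of 21 ethylene genes, 6 rose and 7 fell (11 and 5 with median scaling). The counts 6 and 7 were near the shares over all genes tested, 23.6% rising and 28.6% falling. ACS7, a synthase of the ethylene precursor ACC, read 0.06, 0.05, 0.75 and -0.45 in MYB106SRDX, against -4.63, -5.99, -5.56 and -5.30 in wild type, and ACS2 read 1.42, -0.46, -0.95 and 2.89, against -5.44, -4.82, -5.33 and -4.97. Their relative ACS11 read -4.78, -4.34, -8.06 and -4.97 in MYB106SRDX, against 0.18, -0.03, 0.47 and 0.04 in wild type, and ACS4 was at least 28.3-fold below wild type. ACO1, an ACC oxidase, read -3.99, -4.97, -4.85 and -3.75 in MYB106SRDX, against 0.81, 0.97, 1.10 and 0.87 in wild type. In each of these genes the groups did not overlap; ACS11 was above background on 3 MYB106SRDX arrays.

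Chaperones of the endoplasmic reticulum (ER), which fold secreted proteins, rose as a whole list: 15 of 15 passed upward, with medians of 0.93 to 1.16 on the MYB106SRDX arrays and -0.08 to 0.08 on the wild-type arrays. BIP3, the stress-induced form of the lumenal HSP70, read -2.58, -2.34, -3.0 and -2.39 in MYB106SRDX, against -5.63, -6.87, -6.51 and -6.45 in wild type. BZIP60, the factor that induces ER chaperones under stress, read 5.46, 5.06, 5.17 and 5.64 in MYB106SRDX, against 3.63, 3.71, 3.73 and 3.64 in wild type. CNX1, the lectin chaperone calnexin, read 3.70, 3.69, 3.67 and 3.67 in MYB106SRDX, against 2.37, 2.23, 2.60 and 2.45 in wild type. All 3 genes were higher on every MYB106SRDX array, by 3.79 ± 0.44, 1.66 ± 0.16 and 1.27 ± 0.14 (SE; adjusted p = 5.33e-05, 1.48e-05 and 3.22e-05). ATERDJ3A, a co-chaperone, rose by 2.68 ± 0.24, BIP2 by 1.60 ± 0.14 and the disulfide isomerase UNE5 (PDIL2-1) by 0.94 ± 0.08. BIP1 and BIP2 are near-identical, so their probes may share signal. CRT3, a calreticulin, had the smallest difference, 0.52 ± 0.19, and its arrays overlapped between groups (adjusted p = 0.0403). Its call was lost without any 1 of MYB106SRDX replicates 3 and 4, wild-type replicates 2, 3 and 4 or WIN1SRDX replicates 1, 3 and 4 (adjusted p = 0.0513 to 0.0925). The call was also lost with quantile normalization, normexp, the authors' values, no filter on dim probes, only the arrays of both groups, slide as a block and a replicate block (adjusted p = 0.0519 to 0.0900).

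Alternative respiration and mitochondrial stress genes had the highest list median, 2.61, with 12 of 16 rising and none falling, and 1.77 with normexp. Some of these genes let mitochondria bypass parts of the electron transport chain. AOX1D, an alternative oxidase, read 3.42, 3.64, 3.51 and 4.46 in MYB106SRDX, against -2.63, -4.43, -3.60 and -3.37 in wild type, and AOX1A read 4.08, 4.10, 3.47 and 4.28, against 1.60, 1.10, 1.58 and 1.53. The alternative NADH dehydrogenases NDB2 and NDA2 rose by 2.04 ± 0.31 and 1.58 ± 0.19 (SE; adjusted p = 0.000313 and 7.48e-05).

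NAC13, a factor that carries mitochondrial stress signals to the nucleus, rose by 2.35 ± 0.34, and UGT74E2, a glucosyltransferase used as a reporter of that signal, read 4.31, 4.56, 3.40 and 5.29 in MYB106SRDX, against 0.60, 0.20, 0.06 and 0.30 in wild type. Every MYB106SRDX array was above every wild-type array for these genes. AOX1B, NDB4 and the carrier DIC3 were detected on no wild-type array and lay at least 3.85-fold, 6.52-fold and 11.5-fold higher in MYB106SRDX. NDA1, a light-regulated member, differed by -0.18 ± 0.55 and did not pass. PHT3;2, a mitochondrial phosphate carrier outside the list, was among the largest rises, with 1.34, 0.90, 2.89 and 2.44 in MYB106SRDX, against -4.45, -6.29, -5.43 and -5.05 in wild type.

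Heat shock genes rose in 12 of 17 cases and fell in 2 (14 and 1 with median scaling). HSP17.6II, a small heat shock protein, read -2.33, -3.19, -3.77 and -2.71 in MYB106SRDX, against -6.36, -5.97, -5.62 and -6.68 in wild type, and HSP17.6A read -1.69, -2.52, -3.16 and -1.72, against -6.36, -6.03, -5.79 and -6.47. Every MYB106SRDX array was above every wild-type array in both (3.15 ± 0.56 and 3.89 ± 0.76, SE). HSP90.1 rose by 1.69 ± 0.28 and the heat stress factors HSF4 (HSFB1) and HSFA2 by 1.83 ± 0.25 and 1.76 ± 0.47. HSFA7A differed by -1.41 ± 0.32.

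Tau-class glutathione S-transferases, which attach glutathione to toxic compounds, had 16 rises and 4 falls among 28 (19 and 2 with median scaling). GSTU12 read 3.23, 3.36, 1.97 and 4.62 in MYB106SRDX, against -2.67, -4.55, -2.70 and -3.06 in wild type. GSTU7 read 3.05, 3.33, 3.41 and 4.02 in MYB106SRDX, against 0.89, 0.53, 1.01 and 1.00 in wild type. The arrays lay apart for both, by 6.54 ± 0.56 and 2.60 ± 0.20 (SE; adjusted p = 8.53e-06 and 3.85e-06). GSTU11 and GSTU10 rose by 5.87 ± 0.45 and 4.20 ± 0.32, and GSTU13 differed by -2.22 ± 0.23.

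The phi class was divided, with 4 rises and 4 falls among 12, beside 23.6% and 28.6% over all genes tested. GSTF7 read 3.91, 4.01, 3.62 and 4.48 in MYB106SRDX, against 0.63, 0.03, 0.30 and 0.78 in wild type, and GSTF3 rose by 2.31 ± 0.26. These have near-identical relatives in GSTF6 and GSTF2. GSTF12, which carries flavonoid pigments to the vacuole, read -6.76, -9.14, -6.62 and -5.13 in MYB106SRDX (well above background on 3 arrays), against -0.82, -0.42, -1.73 and -1.89 in wild type. GSTF14 read -6.91, -6.25, -9.12 and -9.11, against -0.68, -0.49, -0.62 and -0.80, and was above background on a single MYB106SRDX array.

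ABCC transporters, which pump glutathione conjugates into the vacuole, had 11 rises and no fall among 15. ABCC3 read 3.02, 1.43, 2.15 and 3.42 in MYB106SRDX, against -0.01, -0.44, -0.30 and -0.40 in wild type, all arrays higher (2.79 ± 0.52, SE; adjusted p = 0.00123). UDP-glycosyltransferases, which attach sugars to small molecules, had 28 rises and 13 falls among 57 (39 and 7 with median scaling). UGT71B5 rose by 5.26 ± 0.34, and UGT71C1 read -5.23, -3.45, -7.41 and -8.58 in MYB106SRDX, against 0.19, -0.54, 0.26 and 0.16 in wild type, above background on 2 MYB106SRDX arrays. Cytochrome P450 genes stood near the shares over all genes, with 59 rises and 54 falls among 187. The P450 with the largest difference, CYP82C2, known for hydroxylating indole defence compounds, read 2.72, 4.30, 1.12 and 4.26 in MYB106SRDX, against -6.97, -7.13, -8.05 and -7.04 in wild type, where 2 arrays were above background.

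Of 24 antioxidant genes, 12 rose and 3 fell (16 and 1 with median scaling). GR1, a cytosolic glutathione reductase, read 3.63, 3.49, 3.85 and 4.48 in MYB106SRDX, against 1.98, 1.88, 2.06 and 1.91 in wild type. VTC2, which controls ascorbate synthesis, read 3.75, 3.36, 3.74 and 3.92 in MYB106SRDX, against 2.28, 2.40, 2.32 and 2.21 in wild type. Each lay above wild type on all 4 arrays (1.91 ± 0.18 and 1.39 ± 0.15, SE). HPT1, of vitamin E synthesis, rose by 1.97 ± 0.20 and CSD1, a copper/zinc superoxide dismutase, by 1.60 ± 0.33. DHAR1, a dehydroascorbate reductase, fell by 1.28 ± 0.22 log2 units (adjusted p = 0.000795), and CAT2, the main catalase of leaves, differed by -0.56 ± 0.28 without passing.

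Of 36 cysteine-rich receptor kinases, which sense signals at the cell surface, 20 rose and 2 fell (27 and 1 with median scaling), and of 43 receptor-like proteins, 22 rose and 4 fell (7 fell without MYB106SRDX replicate 2). CRK36 was detected on all MYB106SRDX arrays, with 0.76, -0.90, 0.05 and 1.09, and on no wild-type array, at least 170-fold higher. RLP21 was at least 57.9-fold higher in the same way. CRK42 was lower, by -1.83 ± 0.36, and RLP44, which links wall state to brassinosteroid signalling, differed by -3.89 ± 0.41 with 1 MYB106SRDX array above background. Of 15 immune receptors and early signalling genes, 8 rose and none fell.

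FRK1, a receptor kinase gene used as a marker of early immune signalling, read -1.72, -1.75, -1.91 and -1.83 in MYB106SRDX, against -6.18, -6.93, -6.91 and -6.78 in wild type. EFR, the receptor of bacterial elongation factor Tu, read 0.55, 1.00, 0.97 and 1.11 in MYB106SRDX, against -0.94, -0.83, -0.84 and -0.68 in wild type. Both were higher on every array (4.90 ± 0.24 and 1.73 ± 0.16, SE; adjusted p = 3.87e-07 and 1.43e-05). BIK1, a kinase downstream of such receptors, rose by 1.40 ± 0.16. FLS2, the flagellin receptor, differed by -0.28 ± 0.15 (adjusted p = 0.129). PROPEP3, the precursor of a danger peptide, read 1.12, 0.04, 0.71 and 2.86 in MYB106SRDX, against -5.48, -5.51, -5.16 and -5.01 in wild type.

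Signalling families near these gave 7 rises and 3 falls among 14 calmodulin-like proteins, 10 and 3 among 22 U-box ligases (16 and 2 with median scaling), and 4 and 0 among 5 STZ/ZAT zinc fingers. CML41 read -0.21, 0.92, 0.76 and 0.95 in MYB106SRDX, against -3.27, -2.82, -3.29 and -4.46 in wild type, all arrays higher. Calcium-dependent kinases had 2 rises and 4 falls among 25, but 15 rises and no fall with median scaling. With that scaling, 9892 of all 20267 genes tested rose and 3141 fell. NAC042 (JUNGBRUNNEN1), a factor known from stress tolerance and longevity, read 1.26, 0.74, -1.10 and 3.24 in MYB106SRDX, against -4.34, -4.66, -4.48 and -4.31 in wild type. WRKY30 read 2.07, -0.94, 3.30 and 1.26 in MYB106SRDX, against -4.75, -5.29, -4.55 and -5.24 in wild type, again without overlap (6.38 ± 0.79, SE; adjusted p = 8.96e-05).

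Tryptophan and indole glucosinolate genes rose in 9 of 14 cases and fell in none. CYP79B2, the entry enzyme from tryptophan to indolic defence compounds, read 4.77, 3.85, 3.48 and 6.21 in MYB106SRDX, against 2.16, 1.20, 1.70 and 1.39 in wild type. CYP81F2, which modifies indole glucosinolates for defence, read 3.72, 3.37, 3.63 and 4.70 in MYB106SRDX, against 1.37, 1.34, 1.44 and 1.81 in wild type. Outside the list, PAD3, the last enzyme of camalexin synthesis, read 4.63, 1.86, 3.94 and 6.05 in MYB106SRDX, against -2.20, -3.25, -1.82 and -1.68 in wild type. All 3 were higher on every MYB106SRDX array, with replicate 4 the highest in each (2.96 ± 0.54, 2.37 ± 0.32 and 6.36 ± 0.81, SE). MYB51, a regulator of the pathway, rose by 1.61 ± 0.30 and ASA1, of tryptophan synthesis, by 1.80 ± 0.34.

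In the plot of 12 genes by array, genes of stress and defence lie high in MYB106SRDX and genes of transport, wall and xylem lie low, and in no panel do the groups overlap.

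**Figure D5:**
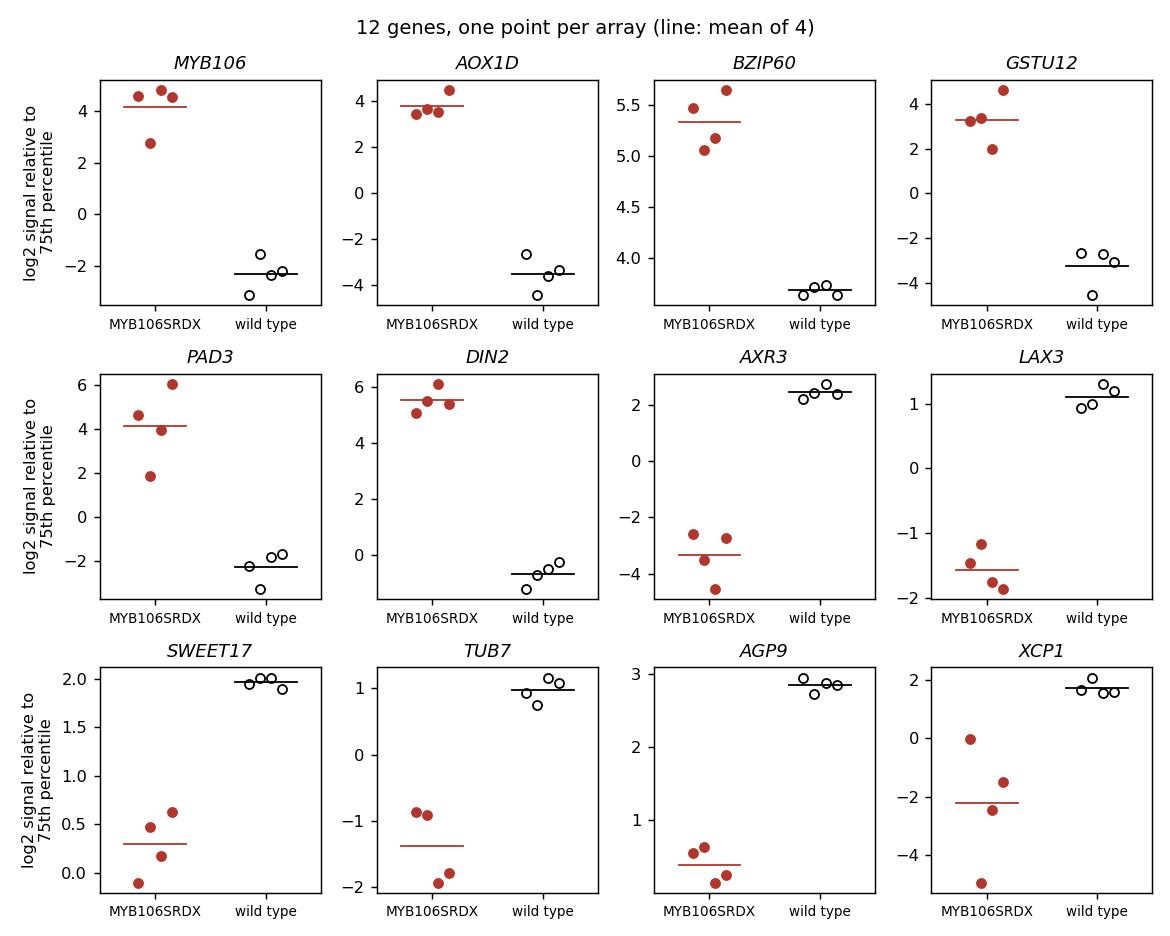
Log2 signal minus the array's 75th percentile (log2 units) for 12 genes, 1 point per array, MYB106SRDX (filled) left of wild type (open), with a line at the mean of 4. MYB106, AOX1D, BZIP60, GSTU12, PAD3 and DIN2 lie higher in MYB106SRDX, and AXR3, LAX3, SWEET17, TUB7, AGP9 and XCP1 lower, with the widest spread in PAD3 and XCP1.

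Carbon and nitrogen metabolism changed in part. Of 13 genes of peroxisomal beta-oxidation and gluconeogenesis, which break down fatty acids, 9 rose and 1 fell. ACX2, an acyl-CoA oxidase, read 3.69, 3.77, 3.89 and 3.54 in MYB106SRDX, against 2.06, 2.14, 2.01 and 2.05 in wild type, and the thiolase gene PKT3 read 4.83, 5.09, 5.53 and 4.56, against 3.49, 3.78, 3.52 and 3.33. Both lay above wild type on all arrays (1.66 ± 0.32 and 1.47 ± 0.20, SE). Plastid fatty acid synthesis and desaturation genes had 10 falls and no rise among 18, but 1 fall and 4 rises with median scaling. FATB, a thioesterase that releases saturated fatty acids for export, read 1.43, 1.51, 1.19 and 1.13 in MYB106SRDX, against 2.53, 2.59, 2.65 and 2.63 in wild type, all arrays lower (-1.28 ± 0.15, SE; adjusted p = 5.99e-05).

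Of 21 genes of a list of amino acid breakdown and dark-induced genes, 8 rose and 1 fell (12 and none with median scaling). The largest rise, DIN2, and the only fall, DIN10 (-0.82), are dark-induced genes of sugar metabolism, not of amino acid breakdown. DIN2 (BGLU30), a dark-induced beta-glucosidase, read 5.09, 5.50, 6.13 and 5.41 in MYB106SRDX, against -1.20, -0.71, -0.48 and -0.24 in wild type. LKR/SDH, of lysine breakdown, read 3.86, 4.73, 4.35 and 3.81 in MYB106SRDX, against 1.94, 2.29, 2.25 and 2.01 in wild type, and PPDK, which turns pyruvate into phosphoenolpyruvate, read 5.02, 5.87, 5.09 and 5.48, against 3.30, 3.31, 3.48 and 3.59. The arrays of these genes lay apart by over 1 log2 unit. ASN1, an asparagine synthetase also known as dark-induced, differed by 0.01 ± 0.36 (adjusted p = 0.983). In autophagy, ATG8H rose by 1.41 ± 0.31 and APG12B differed by -0.85 ± 0.14, its call lost with median scaling. Of 19 autophagy genes 6 rose and 2 fell, and 15 rose with median scaling.

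Starch genes mostly did not pass, with 5 rises and 2 falls among 31 (13 and 1 with median scaling, and 6 falls with quantile normalization). The exception in size was AMY1, a secreted alpha-amylase, with 1.76, 1.57, 3.68 and 0.25 in MYB106SRDX, against -6.28, -6.26, -6.42 and -6.47 in wild type. DBE1, an isoamylase subunit, and the beta-amylase gene BAM1 rose by 1.48 ± 0.18 and 1.21 ± 0.21, and BMY3 fell by 2.04 ± 0.26 log2 units (adjusted p = 0.000117). Among 18 sugar transporters, which share SUC2 with the phloem list, 3 rose and 4 fell (8 and 4 with median scaling). Over all genes tested, 23.6% rose and 28.6% fell. MSS1 (STP13), a hexose importer known from stress, read 3.51, 3.14, 3.92 and 3.60 in MYB106SRDX, against 1.34, 0.36, 0.57 and 1.03 in wild type. SWEET17, a vacuolar fructose carrier, read -0.10, 0.48, 0.17 and 0.63 in MYB106SRDX, against 1.95, 2.01, 2.02 and 1.90 in wild type. The groups were apart in opposite directions (2.72 ± 0.29 and -1.68 ± 0.15, SE).

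Chloroplast and housekeeping lists stood close to wild type. Among 16 Calvin cycle genes 1 rose and 3 fell, among 9 of photorespiration none rose and 2 fell, and among 21 of chlorophyll synthesis 1 rose and 2 fell. With median scaling 6, 1 and 9 of these rose and none fell. HEMA2, of early chlorophyll and haem synthesis, read 3.23, 3.23, 3.00 and 3.88 in MYB106SRDX, against 1.82, 1.46, 2.02 and 1.93 in wild type, all arrays higher. Cytosolic ribosomal proteins had 2 rises and 5 falls among 17 (9 and 3 with median scaling). RPL5B read -5.12, -5.96, -5.57 and -5.91 in MYB106SRDX, against -1.64, -1.44, -2.68 and -2.39 in wild type, far from the list median of 0.00. Of 22 proteasome genes 5 rose and none fell, with RPT2a at 0.57 ± 0.11, and with median scaling 18 rose. Of 7 genes of the nucleolus and ribosome assembly, 3 rose and none fell, and all 7 rose with median scaling. NUC-L2, a nucleolin, read -1.02, -2.16, -1.85 and -0.28 in MYB106SRDX, against -4.45, -4.80, -4.66 and -4.78 in wild type, far from the list median of 0.28. Of 11 genes of DNA methylation and silencing, 2 rose and 3 fell (4 and none with median scaling). NRPD1A rose by 1.24 ± 0.27, and AGO4 differed by -0.81 ± 0.23, its call lost with median scaling.

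Single genes outside the lists carried some of the largest differences. TI1, a trypsin inhibitor, read 4.99, 4.41, 5.44 and 4.13 in MYB106SRDX, against -1.61, -2.41, -1.45 and -2.32 in wild type. NATA1, an acetyltransferase of ornithine, read 3.96, 4.52, 4.83 and 5.75 in MYB106SRDX, against -1.12, -1.79, -1.82 and -2.67 in wild type. DREB19, a drought-responsive AP2 factor, read 1.08, 0.39, -0.14 and 1.36 in MYB106SRDX, against -5.99, -6.41, -6.43 and -6.09 in wild type. In each, the lowest MYB106SRDX array was over 5 log2 units above the highest wild-type array.

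Other large rises were ChlAKR, a chloroplast aldo-keto reductase (6.33 ± 0.58), PDF1.4, a defensin (6.12 ± 0.55), LAS1, a lanosterol synthase (5.94 ± 0.50), YLS9, induced in senescence (5.98 ± 0.74), and PTR3, a peptide transporter (5.27 ± 0.39). PAP85, which belongs to the vicilin-like seed proteins, read 2.08, 2.04, 1.68 and -1.66 in MYB106SRDX, against -6.63, -4.44, -5.67 and -4.81 in wild type, with replicate 4 far below the other MYB106SRDX arrays but above wild type.

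The largest falls beyond auxin genes included PAR2, a repressor of shade growth, with -3.0, -2.94, -6.06 and -4.87 in MYB106SRDX, against 1.31, 1.43, 1.59 and 1.75 in wild type. Its relative PAR1 differed by -5.47 ± 0.42. AMT1;3, an ammonium importer of roots, read -6.21, -4.85, -5.96 and -6.62 in MYB106SRDX, against -0.63, -0.59, -0.46 and -0.71 in wild type. PERK15, a receptor kinase, and MLP34, a major latex protein relative, differed by -5.48 ± 0.26 and -5.55 ± 0.76. Groups did not overlap in any of them.

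Detection itself differed for some genes. In MYB106SRDX alone 179 genes were well above background on all 4 arrays, all of which passed, with a median bound of at least 7.28-fold. In wild type alone 493 were so, of which 487 passed, with a median bound of at least 3.89-fold. The same arrays chose these genes, so their passing was nearly fixed by the choice and is no separate result. BGLU27, a beta-glucosidase, had 0.91, -1.04, -0.50 and 3.35 in MYB106SRDX and was at least 228-fold higher. PGAZAT, a polygalacturonase of abscission zones, was at least 158-fold higher, CSLG2, a cellulose synthase-like protein, at least 122-fold, and BHLH92, a stress-induced factor, at least 120-fold. Replicate 2 was the lowest MYB106SRDX array in BGLU27, CSLG2 and BHLH92.

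On the other side, TIP2;3, an aquaporin of the root vacuole, read 0.01, 0.46, 0.38 and 0.02 in wild type and was at least 146-fold lower in MYB106SRDX. FRU (FIT), the factor of iron uptake in roots, was at least 44.8-fold lower, LRL3, a root hair factor, at least 44.8-fold, RALFL27, a peptide hormone relative, at least 43.5-fold, and CYP712A1 at least 30.6-fold. UMAMIT4, a putative amino acid exporter, was at least 28.4-fold lower. The root hair and root genes among these move with the root markers described above; the part of root content in their difference was not tested.

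MYB106SRDX was also set directly against WIN1SRDX, the other repressor line, because both share the wild-type arrays. Between the lines 8625 genes (42.6%) passed, 3717 higher in MYB106SRDX (18.3%) and 4908 lower (24.2%). The auxin carriers had a list median against wild type of -2.67 in MYB106SRDX and 0.02 in WIN1SRDX. LAX3 differed by -3.27 ± 0.19 (SE; adjusted p = 8.43e-07) between MYB106SRDX and WIN1SRDX. Root markers likewise had a median of -3.81 in MYB106SRDX and 1.11 in WIN1SRDX. PHO1 differed by -2.66 ± 0.25 (adjusted p = 2.59e-05) between MYB106SRDX and WIN1SRDX. This was less than its difference from wild type, so PHO1 did not share the higher list median of WIN1SRDX.

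ERF53, a drought-responsive AP2/ERF factor, moved in opposite directions in the 2 lines. It lay 5.19 ± 0.90 above wild type in MYB106SRDX and at -3.84 against wild type in WIN1SRDX, a difference between the lines of 9.04 ± 0.90 (adjusted p = 3.51e-05). GATL2, a galacturonosyltransferase-like protein, was also above wild type in MYB106SRDX (3.63 ± 0.21) and below it in WIN1SRDX (-1.13), with 4.76 ± 0.21 between the lines. MYB74 and M17, a late embryogenesis protein, differed by 5.46 ± 0.56 and 5.42 ± 0.71 between the lines, and neither passed between WIN1SRDX and wild type. GATL2 read 2.65, 2.54, 2.70 and 3.11 in MYB106SRDX, against -0.67, -1.25, -0.70 and -0.91 in wild type.

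In the other direction, XTH14, a wall-loosening transglucosylase, differed by -5.88 ± 0.33 between MYB106SRDX and WIN1SRDX, with -4.05 ± 0.33 against wild type in MYB106SRDX and 1.82 in WIN1SRDX. SBT4.12, a subtilase, gave -5.76 ± 0.43 between the lines, GATA12 -5.09 ± 0.73 and AXR3 -5.08 ± 0.42. Of the 15 ER chaperones, 2 were higher and 1 was lower in MYB106SRDX than in WIN1SRDX. CNX1 differed by 0.19 ± 0.14 (adjusted p = 0.291) and BIP2 by 0.25 ± 0.14 (adjusted p = 0.185), and neither passed. Against wild type, the ER chaperone median was 1.05 in MYB106SRDX and 0.94 in WIN1SRDX. Other lists also had medians of 1 sign in both lines, unlike the auxin carriers and root markers. These medians were 2.61 and 1.30 for alternative respiration, 0.86 and 1.12 for tau-class transferases, and -0.95 and -0.77 for cellulose synthesis.

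The MYB106SRDX arrays differed among themselves in how far they had moved. Over the genes that rose, the median deviation from wild type was 0.74, 0.82, 0.89 and 0.90 log2 units in replicates 1 to 4. Over the genes that fell it was -1.07, -1.35, -1.53 and -1.42. The genes with the widest spread included ASG4, a MYB-related factor, with -0.83, -6.64, -1.19 and 1.82 in MYB106SRDX, against -7.08, -6.92, -8.20 and -7.16 in wild type. PUB19, a U-box ligase of drought responses, read 1.24, -4.86, 1.78 and 1.82 in MYB106SRDX, against -4.16, -4.83, -4.90 and -5.52 in wild type. KCS8, a fatty acid elongase, read -1.25, 2.27, -3.48 and -3.43 in MYB106SRDX, against 3.57, 3.82, 3.90 and 3.89 in wild type. ASG4 was well above background on 1 wild-type array. In PUB19 replicate 2 lay within the wild-type range and in ASG4 just above it, while the others were far above, and in KCS8 replicate 2 lay nearest to wild type.

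Some genes moved with little spread. HIRA, a histone chaperone, read -1.68, -1.69, -1.70 and -1.71 in MYB106SRDX, against -2.33, -2.03, -2.33 and -2.34 in wild type, PHB2, a mitochondrial prohibitin, read 2.63, 2.64, 2.61 and 2.64, against 1.99, 2.06, 2.24 and 2.14, and HIR1, of the plasma membrane, read 3.11, 3.1, 3.13 and 3.14, against 2.17, 2.32, 2.26 and 2.23. These differences were small (0.56 ± 0.10, 0.52 ± 0.08 and 0.87 ± 0.08, SE) but larger than the spread of either group, and no arrays overlapped. They were named for their small spread over the MYB106SRDX arrays.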

How the data were processed

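RNA of whole seedlings was hybridised to 12 one-colour Agilent arrays, 1 per sample, and the groups were taken from the labelled genotypes. Per the file headers, spot intensities came from Agilent Feature Extraction 9.1.3.1. The deposited processed intensity is background-subtracted and spatially detrended, and is not normalized between arrays. The deposited files also hold flags (0 or 1) for spots well above background, saturated or marked as outliers. The authors' value table holds each array's processed intensity as a ratio to a constant of that array, uncentred on a linear scale, with its upstream steps not given in the sources used here.

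Processed intensities of non-control spots were divided by the 75th percentile of the array and log2-transformed, outlier-marked spots were left out, spots of a probe were averaged, and the brightest probe stood for a locus. Of 37478 probes, 26236 named 1 of 25665 loci, and 25449 loci were found in the RefSeq table (TAIR assembly, used for names only), 10189 with a symbol. Tested genes were those that all 4 arrays of 1 or more groups flagged as well above background. All 3 groups entered 1 limma fit (limma 3.58.1, R 4.3.3, lmFit and eBayes, 9 residual degrees of freedom) with Benjamini-Hochberg adjustment over 20267 genes, tested on simulated data. A lower bound of a fold is the mean of the group that was measured against, per array of the other group, the higher of the probe's own signal and the lowest signal well above background. The number of arrays limits the precision.

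The gene lists and families were chosen with earlier results of these data known. Families were gathered by symbol, leaving out those whose symbols belong to unrelated genes. Genes were named by rule: the largest changes measured on all 8 arrays, the list members with the lowest p in each direction, the extremes of each family, the largest detection bounds, the largest differences from WIN1SRDX and the widest and narrowest spreads. Named after their values were seen were ACX2, AGP4, AOX1A, AOX1B, ASA1, ASN1, AUX1, BIP3, CASP1, CAT2, CESA4, CRT3, CSD1, DIC3, DWF4, FLS2, FRA8, HSFA2, HSP17.6A, HSP17.6II, IRX1, IRX3, LAC17, LKR/SDH, MYB46, MYB51, NAC13, NDA1, NDB2, NDB4, PHO1, PIN3, PIN4, PIN5, RHD2, RPL5B, SCR, SHR, TCP10, TUA1 and XCP1. Some genes that these rules take are not reported here. Alternatives covered scaling, background correction, a background floor, the authors' values, filters, probe choice, slide and replicate terms and leaving out each array. For normexp the median spot signal was used, in place of the mean signal planned. A planned search of promoters was not run, since no sequence was used here.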

Additional observations from a re-analysis of the deposited data

Results flagged for a closer look

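Among 647 groups of 4 arrays examined, for the named genes and the list medians, 28 held an array whose distance to the nearest of the others, as a share of the whole range, exceeded the critical value of Dixon's test, and chance marks about 1 in 20 such groups. Of these, 16 were in MYB106SRDX, 8 of them on replicate 2, and 12 in wild type, 7 of them on replicate 2.

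In MYB106SRDX, replicate 2 stood below the other arrays in MYB106 (2.77) and SUP (3.59). It also stood apart in the U-box ligase gene PUB19 (-4.86), the gibberellin oxidase gene GA20OX3 (-4.55), the kinase gene CIPK20 (-5.52) and the MYB factor gene MYB67 (-7.29), and it was the highest in the immune kinase gene BIK1 (2.80) and the dehydrogenase gene ATCAD4 (1.17). Replicate 1 stood apart in CML41 (-0.21) and ARR9 (-0.41). Replicate 3 did so in the peptide gene CLE12 (0.0907), the sulfotransferase gene SOT12 (2.78) and the ACC synthase gene ACS11 (-8.06). Replicate 4 did so in PAP85 (-1.66), CPK27 (-3.99) and the median of the genes of cytokinin making and removal (0.78).

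In wild type, replicate 2 stood apart in LAX2 (1.34), UGT71C1 (-0.54), AOX1A (1.10), HIRA (-2.03), XCP1 (2.09), HSFA3 (0.32) and the median of the type-A response regulators (0.39). Replicate 1 did so in CSD1 (0.52), the branching factor gene BRC1 (-5.06) and FLA12 (0.17), replicate 3 in CYP82C2 (-8.05) and replicate 4 in the median of the brassinosteroid genes (0.0432).

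Signal also appeared outside the named loci. Of 11242 probes that name no locus, 2499 were tested in the same way, and 1059 (42.4%) passed, against 52.2% of the genes with a locus. Of the passing probes, 437 were higher and 622 lower in MYB106SRDX than in wild type.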

How the results depend on the processing

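Counts moved most with scaling and with the treatment of dim genes. Median scaling gave 9892 genes higher and 3141 lower in MYB106SRDX, and 4464 higher by at least 2-fold. Genes lower by at least 2-fold numbered 2420 with normexp and 2349 when a gene had to be above background on each of the 12 arrays, which tests fewer genes. Genes higher by at least 2-fold numbered 1927 and 1693 in these settings. Median scaling turned CBP20 to 0.22 and CESA1 to 0.0615, and the list medians of DNA methylation to 0.20, gibberellin to 0.0804, photorespiration to 0.20 and plastid fatty acid genes to 0.0214, since it adds the same amount to every difference. Other list and family medians below 0 also turned: Calvin cycle to 0.33, chlorophyll synthesis to 0.41, sugar transporters to 0.45, reference genes to 0.47, Rab and ROP GTPases to 0.0895, TCP to 0.097, bZIP to 0.26, syntaxins to 0.34, calcium-dependent kinases to 0.48, MAP kinases to 0.46, UMAMIT transporters to 0.27 and pectin methylesterases to 0.12. Within slide 3, BRC1 was -0.22, and the cause was not tested. The authors' values gave 3631 higher and 5790 lower.

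Leaving out 1 array at a time gave 9167 to 10807 passing genes (4105 to 4907 higher and 5062 to 5901 lower) and 5416 to 5984 with at least a 2-fold change (1943 to 2263 higher and 3469 to 3820 lower). It gave 179 to 223 genes detected in MYB106SRDX alone, 493 to 594 in wild type alone, and 7720 to 8658 passing between MYB106SRDX and WIN1SRDX. With slide as a block 9877 genes passed. Same-numbered samples shared little deviation (correlations of -0.0992, -0.0421, -0.0318 and 0.00447), and a replicate block gave 10031 passing genes. These correlations cannot tell whether same-numbered samples were grown or handled together. Differences within slides carry no test and so give no count of passing genes. The search of promoters was not run. Signals near background limit the folds of dim genes.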
